A study of Mus musculus with 10 samples.

Results

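Tissue macrophages that settle in an organ and renew there carry a set of surface receptors and enzymes that freshly arrived monocytes lack or carry at low level. The genes described here are 7 such resident macrophage markers, Folr2, Lyve1, Cbr2, Cd163, Vsig4, Timd4 and Stab1, chosen by symbol from the 55359 gene identifiers counted. All 7 had 1 identifier each and passed the filter on low counts, beside 14374 genes tested in all. They were read in F4/80+ cells that had been sorted by flow cytometry from Braf-mutant melanomas of male mice. The tumours are labelled resistant or rebound, and both groups received Braf and Mek inhibitors daily until collection. The 5 control libraries came from mice with 1 RFP allele of Ccr2 (Ccr2RFP/+), so the controls are heterozygous although their titles say WT. The 5 Ccr2 knockout libraries came from mice with the RFP allele on both chromosomes (Ccr2RFP/RFP). The labels give no age and do not say whether animals were pooled or whether each library is a different mouse, so every p-value here reflects only library-to-library spread, part of which may be technical.

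Resident macrophages clear material from their surroundings, and most of these markers serve that task. Stab1 and Lyve1 are receptors for scavenged ligands and for hyaluronan, Cd163 takes up haemoglobin bound to haptoglobin, Vsig4 binds complement-coated particles, and Timd4 binds phosphatidylserine on dying cells. Folr2 is the folate receptor beta, and Cbr2 is a carbonyl reductase that is used as a marker of resident macrophages. Ccr2 is the chemokine receptor by which classical monocytes leave the bone marrow, so the comparison asks how macrophages of drug-resistant tumours differ when that entry is impaired.

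The depth was similar in all libraries, from 34639808 to 43360206 counts in genes. Ccr2 stood between 59.0 and 177 CPM (counts scaled to library size with edgeR's TMM factors) in control libraries and between 3.23 and 6.28 CPM in knockout libraries. Adgre1, the gene of F4/80, had a level of 1826 ± 114 CPM without and 1836 ± 189 CPM with the knockout (SD, n = 5 each). The control pairs 1 with 2 and 3 with 4 were closer than any other libraries (median chi-square per gene 2.80 and 2.71, against 5.43 to 27.0 for the other pairs and 0.455 for counting noise). Counts in these pairs differed beyond counting noise, so the libraries were kept apart. Each call of a marker is also given with both pairs added up. Calls of the other genes named below are not given that way. With both pairs added up 29 of all genes passed, against 203 with the libraries apart. Of all genes tested, 1.41% passed an adjusted p of 0.05 (edgeR quasi-likelihood test with Benjamini-Hochberg adjustment over all genes), 0.870% higher and 0.543% lower in knockout libraries.

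The promoters of the 3 markers that passed the test are shown first, so that their letters can be read beside the values. RefSeq windows of 300 bases (250 before and 50 after the start, build GRCm38.p6, minus strand for all 3 genes, printed 5′ to 3′ along the gene) were matched for 6 of the 7 markers. The windows of the 3 markers that rose follow, with Folr2 given for both of its listed starts. Capitals mark the PU box GAGGAA, the element of the macrophage factor PU.1, and the half-site TGCTGA bound by Maf factors, each on either strand.
Folr2, upstream start, chr7:101857141-101857440: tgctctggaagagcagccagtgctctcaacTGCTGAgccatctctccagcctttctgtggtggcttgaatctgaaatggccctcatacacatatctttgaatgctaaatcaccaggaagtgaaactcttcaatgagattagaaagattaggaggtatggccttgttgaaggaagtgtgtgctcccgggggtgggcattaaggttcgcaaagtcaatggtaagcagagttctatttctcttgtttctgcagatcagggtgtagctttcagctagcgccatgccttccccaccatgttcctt
Folr2, downstream start, chr7:101845282-101845581: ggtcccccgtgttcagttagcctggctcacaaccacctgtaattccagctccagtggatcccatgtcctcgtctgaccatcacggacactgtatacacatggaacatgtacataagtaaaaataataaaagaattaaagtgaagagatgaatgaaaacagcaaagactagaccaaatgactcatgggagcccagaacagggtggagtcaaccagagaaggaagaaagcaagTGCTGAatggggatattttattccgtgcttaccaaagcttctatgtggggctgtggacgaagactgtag
Cbr2, chr11:120731972-120732271: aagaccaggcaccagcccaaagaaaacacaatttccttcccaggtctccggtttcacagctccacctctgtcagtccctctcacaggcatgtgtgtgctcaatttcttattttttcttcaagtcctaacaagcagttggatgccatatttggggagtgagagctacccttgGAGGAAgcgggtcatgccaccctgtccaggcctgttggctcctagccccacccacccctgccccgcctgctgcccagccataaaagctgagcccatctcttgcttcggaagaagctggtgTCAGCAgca
Vsig4, chrX:96293389-96293688: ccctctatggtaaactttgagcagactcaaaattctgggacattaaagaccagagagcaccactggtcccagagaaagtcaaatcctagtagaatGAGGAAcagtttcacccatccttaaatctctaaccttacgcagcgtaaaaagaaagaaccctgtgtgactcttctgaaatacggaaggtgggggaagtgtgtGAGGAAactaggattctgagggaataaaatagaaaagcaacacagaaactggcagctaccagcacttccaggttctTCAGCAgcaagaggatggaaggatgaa
The half-site TGCTGA was found in 6 of the 7 windows and in 5 of the 6 markers with a window, and Cd163 had none. Of all 32851 promoter windows of the same length, 19.5% held it on either strand. In Folr2 it began 220 bases before the upstream start and 19 bases before the downstream start, and in Timd4 it began 150 and 44 bases before the start. In Cbr2 and Vsig4 it lay inside the transcript, from base 42 and base 24. The PU box was found in the windows of Cbr2, Stab1 and Vsig4 (79, 30, and 155 and 53 bases before the start), and in 28.3% of all windows. No base was shared between the motifs in these windows. These matches describe letters only: no binding was measured, and 2 genes of such factors did not pass the test, with Maf at 300.5 ± 17.9 and 342 ± 46.4 CPM and Spi1, the gene of PU.1, at 497 ± 15.4 and 510 ± 75.5 CPM in control and knockout libraries (edgeR adjusted p = 0.413 and 0.893, n = 5 each).

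Vsig4, Folr2 and Cbr2 rose in macrophages of Ccr2 knockout mice, and the other 4 markers did not pass the test. Vsig4 was 5.02-fold, Cbr2 2.40-fold and Folr2 2.10-fold higher in knockout libraries. That is 3 of 7 markers called higher and 0 lower by edgeR, where 0.870% of all genes were called higher (5 higher and 0 lower at an unadjusted p of 0.05, 5 and 0 by DESeq2, 4 and 0 by limma-voom). Over all genes, in either direction, DESeq2 called 5.70% and limma-voom 3.10%, and these shares stand beside the lists below too. No share of all genes was taken at an unadjusted p of 0.05. That share is larger than the edgeR shares at an adjusted p, so those do not serve for the unadjusted counts. The unadjusted counts, here and in all lists below, are therefore given as values only and are not read as results. All 7 log2 fold changes were above 0, as were 49.5% of those of all genes, and the median was 1.07 for the markers and -0.00 for all genes tested. In the same 3 markers every knockout library lay above every control library, which held for 2.69% of all genes. The markers and the lists below were chosen with earlier results of these data known. The shares over all genes therefore describe the lists and do not test them. Levels in bulk RNA do not tell more cells of a kind from more RNA per cell. The estimates ranged from 0.53 for Lyve1 to 2.86 for Timd4 on the log2 scale, and their intervals differed as much in width as in place.

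**Figure D1:**
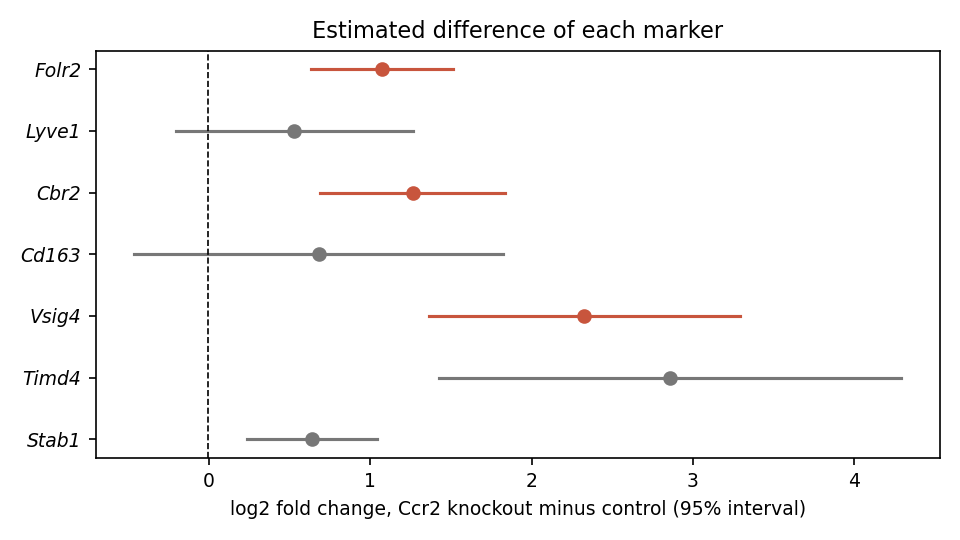
Log2 fold change of each marker, Ccr2 knockout minus control, with its 95% interval from edgeR (n = 5 libraries per group). Red marks the 3 genes with an adjusted p under 0.05, grey the other 4, and the dashed line is the median of all 14374 genes tested. The intervals of Lyve1 and Cd163 include 0.

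Vsig4 encodes a complement receptor of the immunoglobulin superfamily that captures C3b-coated particles. In control libraries 1 to 5 it stood at 5.81, 6.87, 5.601, 5.52 and 20.1 CPM, from 196 to 827 counts. In knockout libraries 1 to 5 it stood at 71.4, 32.3, 42.7, 51.7 and 22.5 CPM. The groups did not overlap, but control library 5 lay close under the lowest knockout library, while the other 4 controls lay close together. The log2 fold change was 2.33 with a standard error of 0.44 (95% interval 1.36 to 3.29, edgeR adjusted p = 0.0292). Without control library 5 it was 2.91 (adjusted p = 0.00396). The call ended without any one of control libraries 1 to 4 or knockout libraries 1 or 4 (adjusted p from 0.0630 to 0.0892). Adding up the close control pairs also ended it (adjusted p = 0.238).

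Folr2, the folate receptor beta of macrophages, is anchored in the membrane and takes up folate. It stood at 102, 118, 129, 124 and 201 CPM in control libraries 1 to 5 and at 214, 288, 289, 378 and 247 CPM in knockout libraries 1 to 5. Every knockout library was above the highest control, again control library 5, and knockout library 1 only narrowly so. Its log2 fold change was 1.07 with a standard error of 0.20 (95% interval 0.63 to 1.51, edgeR adjusted p = 0.0278). The call ended without any one of control libraries 1 to 4 or knockout libraries 4 or 5 (adjusted p from 0.0535 to 0.0866). It ended too once the close control pairs were added up (adjusted p = 0.231). Counting without regard to strand kept only 0.173 to 0.223 of the Folr2 counts of the strand-specific column, and the log2 fold change in those counts was 1.10 (adjusted p = 0.0301).

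Cbr2 encodes a carbonyl reductase, an enzyme that reduces aldehydes and ketones. Control libraries 1 to 5 held 170.5, 209, 155, 183 and 236 CPM, and knockout libraries 1 to 5 held 528, 300.3, 785, 359 and 318 CPM. The groups did not overlap, the controls lay close together, and knockout libraries 3 and 1 stood above the other knockout libraries. The estimate on the log2 scale was 1.26, SE 0.26 (95% interval 0.69 to 1.84, edgeR adjusted p = 0.0436), and it fell to 0.98 without knockout library 3, still past the threshold (0.0328). It was the closest of the 3 calls to the threshold. It ended without any one control library or without knockout library 1, 4 or 5 (adjusted p from 0.0501 to 0.111). With each close control pair as 1 library the adjusted p was 0.264.

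**Figure D2:**
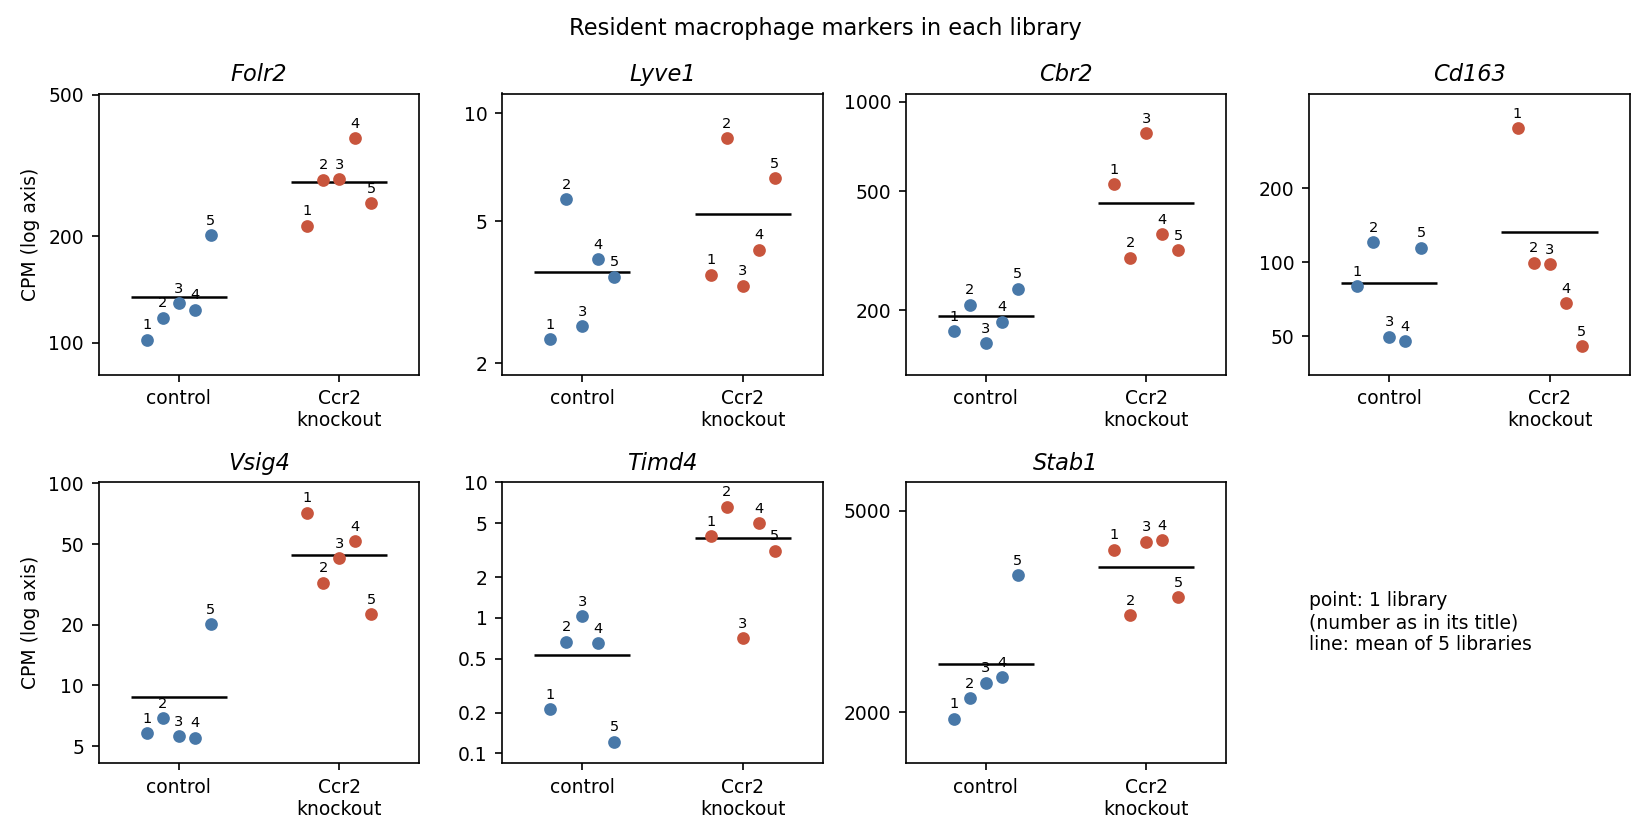
CPM of the 7 markers in each of the 10 libraries, on a log axis. Each point is 1 library, numbered as in its title, blue for control and red for Ccr2 knockout, and the line is the mean of 5 libraries. Vsig4, Folr2 and Cbr2 do not overlap between the groups, control library 5 is the highest control for 4 of the 7 markers, and knockout library 1 stands apart for Cd163.

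Timd4, a receptor by which long-lived resident macrophages bind phosphatidylserine on dying cells, had the largest estimate of the 7 and the lowest counts. It stood at 0.212, 0.667, 1.03, 0.649 and 0.121 CPM in control libraries 1 to 5, from 5 to 36 counts. Knockout libraries 1 to 5 held 3.997, 6.59, 0.7096, 5.01 and 3.13 CPM, from 28 to 274 counts. Knockout library 3 lay within the control range, and the other 4 knockout libraries lay above it. Its log2 fold change was 2.86 with a standard error of 0.65 (95% interval 1.42 to 4.29), and the gene did not pass over all genes (edgeR adjusted p = 0.0648). Without knockout library 3 it was 3.13 and passed (adjusted p = 0.0225).

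Stab1, a large scavenger receptor that clears modified lipoproteins and Sparc, was the most abundant of the markers. Control libraries 1 to 5 held 1942, 2131, 2285, 2342 and 3725 CPM, and knockout libraries 1 to 5 held 4189, 3109, 4342, 4377 and 3376 CPM. The groups overlapped only through control library 5, which lay above knockout libraries 2 and 5. On the log2 scale the fold change was 0.64 with a standard error of 0.18 (95% interval 0.24 to 1.05), and the gene did not pass (edgeR adjusted p = 0.123). Without control library 5 it was 0.85 and passed (adjusted p = 0.0192). For Vsig4, Folr2, Cbr2 and Stab1, control library 5 was thus the control nearest to the knockout libraries. For Timd4 control library 5 was the lowest library of all 10.

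Cd163, the scavenger receptor for haemoglobin bound to haptoglobin, gave no sign of a common shift between the genotypes. Control libraries 1 to 5 held 79.7, 121, 49.8, 47.7 and 114 CPM, and knockout libraries 1 to 5 held 350.0, 99.3, 98.2, 68.1 and 45.4 CPM. Knockout library 1 had the highest level of all 10 libraries and knockout library 5 the lowest. The log2 fold change was 0.68 with a standard error of 0.52 (95% interval -0.46 to 1.82, edgeR adjusted p = 0.554), and without knockout library 1 it was -0.08 (adjusted p = 0.914). An interval of 0.726-fold to 3.54-fold leaves room for a lower level as well as for a rise as large as those of Folr2 and Cbr2. Up to 987 counts per library fell on the strand opposite to Cd163, and between 80.5% and 94.2% of its strand-assigned counts lay on the counted strand, against 96.3% or more for the other 6 markers.

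Lyve1, a hyaluronan receptor of perivascular macrophages and of lymphatic endothelium, was scarce in every library. It stood at 2.34, 5.76, 2.54, 3.92 and 3.50 CPM in control libraries 1 to 5 and at 3.54, 8.52, 3.29, 4.16 and 6.58 CPM in knockout libraries 1 to 5, from 88 to 354 counts. The groups overlapped over most of their range, with control library 2 above 3 of the knockout libraries. The log2 fold change was 0.53 with a standard error of 0.33 (95% interval -0.20 to 1.26, edgeR adjusted p = 0.469). A p above the threshold does not show that the level was the same in both groups.

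Per kilobase of exon (GENCODE M21 on GRCm38, an annotation that need not be the one used for counting), Stab1, Cbr2 and Folr2 led in both groups. In control libraries the levels were 242 ± 69.0 CPM per kilobase for Stab1, 144 ± 24.2 for Cbr2 and 87.2 ± 24.8 for Folr2 (SD, n = 5). Cd163 followed at 15.1 ± 6.32, Vsig4 at 5.92 ± 4.28, Lyve1 at 1.24 ± 0.468 and Timd4 at 0.247 ± 0.171. Taking neighbours as separate where mean ± SD did not overlap, Cd163 and Vsig4, and Vsig4 and Lyve1, were not separate in control libraries. In knockout libraries Stab1 at 377 ± 57.6 and Cbr2 at 345 ± 154 overlapped in spread, as did Cbr2 and Folr2 at 183 ± 39.7 CPM per kilobase. Vsig4 at 29.7 ± 12.7 and Cd163 at 24.2 ± 22.7 also overlapped there, as did Cd163 with Timd4 at 1.79 ± 1.01, and Timd4 with Lyve1 at 1.79 ± 0.774. The order of the means was the same for the top 3 markers in both genotypes, and the exchanges below them were between neighbours that overlapped in knockout libraries.

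Agreement among the markers was uneven from library to library. Each gene's log2 CPM was set against the mean of its genotype, so that the difference between the groups played no part, and the 21 pairs of markers were compared over the 10 libraries. Vsig4 and Stab1 lay on the same side of their group means in 10 of 10 libraries. Folr2 and Stab1 had the smallest mean absolute difference of all pairs, 0.14 on the log2 scale, and lay on the same side in 8 of 10. For these 3 genes control library 5 alone lay above the control mean, so their agreement in controls rests on that 1 library. In the 5 knockout libraries Vsig4 and Stab1 agreed in 5, and Folr2 and Stab1 in 3. Cbr2 matched Stab1, Vsig4 and Cd163 in 8 of 10 libraries each. Timd4 stood apart, with mean absolute differences of 0.78 to 1.30 from the other 6 markers and the same side in only 4 or 5 of 10. Lyve1 lay on the same side as Vsig4 or Stab1 in 3 of 10 libraries, and in 0 of the 5 knockout libraries. These counts are descriptions over 10 libraries, 4 of which form the close control pairs, and no share over all pairs of genes was taken.

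**Figure D3:**
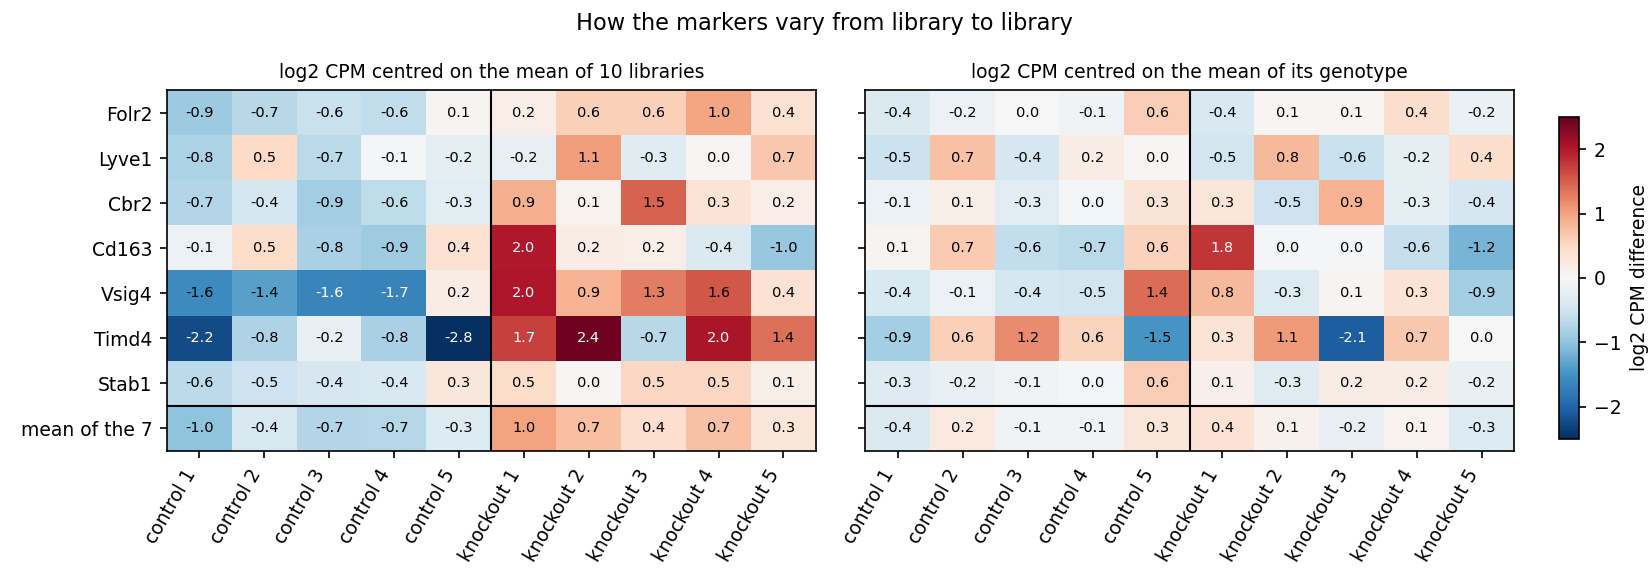
Log2 CPM (prior count 2) of each marker in each library, centred on the mean of the 10 libraries (left) or on the mean of its genotype (right), with the mean of the 7 markers in the bottom row. Colours are capped at the ends of the bar. On the left the mean of the 7 is below 0 in all 5 control libraries and above 0 in all 5 knockout libraries, and on the right Vsig4 and Stab1 share their sign in every library while Timd4 does not follow them. On the right control library 5 is the only control above 0 for Vsig4 and Stab1.

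No knockout library was high for all markers. Knockout library 1 was the highest of the knockouts for Cd163 and Vsig4 and the lowest for Folr2. Knockout library 2 was the highest for Lyve1 and Timd4 and the lowest for Cbr2 and Stab1. Knockout library 3 led for Cbr2 and was the lowest for Lyve1 and Timd4, and knockout library 4 led for Folr2 and Stab1. Knockout library 5 was above its group mean for 1 of the 7 markers. Among controls, library 5 was above the group mean for 6 of 7 and library 1 for 1 of 7. The mean of the 7 centred values ran from -1.01 to -0.34 in control libraries and from 0.31 to 1.01 in knockout libraries.

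The genes whose levels ran most like the markers over the 10 libraries were sought among 10894 genes whose mean reached 2 CPM, by the smallest mean absolute difference of centred log2 CPM. For Folr2 the nearest gene was Slc46a1, the proton-coupled folate transporter, with a mean difference of 0.11. Its control mean was 9.12 ± 2.48 CPM and its knockout mean 18.1 ± 4.27 CPM. For Stab1 it was Syngr1 (0.099), for Cbr2 the platelet factor gene Pf4 (0.21), for Cd163 Mfsd6 (0.25) and for Lyve1 Hap1 (0.28). Vsig4 was nearest to Sh3bgrl2 (0.46) and Timd4 to the complement protease gene C2 (0.61), neither of them a close match. The mean of the 7 markers ran nearest to Neo1 (0.15), Nlrc3 (0.16), Pkp4 (0.21), the bridging protein gene Gas6 (0.22), Cd4 (0.24), Myo7a (0.24), Uaca (0.24) and Ggact (0.24). With genotype differences removed, the genes nearest to the mean of the 7 were Tada2b (0.12), Rmc1 (0.12), the cholesterol exporter gene Abca1 (0.12) and Srcap (0.13). These genes were picked for their likeness, which includes the difference between the genotypes except in the last search, so it supports nothing further.

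Among 26 other genes used for resident macrophages, all tested, 2 rose and 0 fell by edgeR, where 0.870% of all genes were called higher. There were 10 higher and 1 lower at an unadjusted p of 0.05, 8 and 0 by DESeq2, and 3 and 0 by limma-voom. In 20 of the 26 the log2 fold change was above 0, as in 49.5% of all genes, and the list's median was 0.47. The 2 were Gas6, which bridges dying cells to their receptors (263 ± 49.3 to 584 ± 89.2 CPM, edgeR adjusted p = 0.00459), and the growth factor Igf1 (48.2 ± 9.86 to 98.2 ± 15.05 CPM, adjusted p = 0.0135). Pf4, whose levels ran nearest to those of Cbr2, stood at 221 ± 70.7 and 449 ± 231 CPM and did not pass (adjusted p = 0.143). The scavenger receptor gene Marco had a log2 fold change of 3.67, above that of every marker, but on 0.161 ± 0.240 and 2.06 ± 1.62 CPM (adjusted p = 0.0973), and its groups overlapped. Genes that mark resident macrophages of single sites had 0 of 8 tested genes past the threshold by edgeR (1 higher and 1 lower at an unadjusted p of 0.05, 0 and 1 by DESeq2, 0 by limma-voom). Among them the microglial receptor P2ry12 stood at 63.6 ± 10.2 and 82.6 ± 18.1 CPM and Hepacam2 at 0.863 ± 0.424 and 0.228 ± 0.0742 CPM (edgeR adjusted p = 0.293 and 0.0519, n = 5 each). Clec4f, which marks Kupffer cells of the liver, had 0 counts in all 10 libraries.

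Transcription factors of macrophage identity had 0 of 17 genes past the threshold by edgeR (1 higher and 4 lower at an unadjusted p of 0.05, 1 and 2 by DESeq2, 1 and 0 by limma-voom). Their median log2 fold change was -0.18, and 6 were above 0. Bhlhe41 stood at 28.3 ± 11.1 and 71.2 ± 22.2 CPM and Zeb2 at 217 ± 21.7 and 152 ± 31.4 CPM in control and knockout libraries (edgeR adjusted p = 0.0725 and 0.108, n = 5 each).

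The pathways around the single markers were taken in turn. Of 15 tested genes of folate handling, 1 rose, Slc46a1 (log2 fold change 0.99, SE 0.21, edgeR adjusted p = 0.0451), 0 fell and the list's median was 0.23 (3 higher and 2 lower at an unadjusted p of 0.05 by edgeR, 1 and 0 by DESeq2 and by limma-voom). The reduced folate carrier gene Slc19a1 stood at 14.0 ± 1.66 and 16.4 ± 3.64 CPM (adjusted p = 0.517), and the other tested genes of the list, mostly one-carbon enzymes, did not pass either. Of 18 tested genes of hyaluronan and scavenger uptake, around Lyve1 and Stab1, 0 passed by edgeR (4 higher and 1 lower at an unadjusted p of 0.05, 3 and 1 by DESeq2, 1 and 0 by limma-voom). The hyaluronidase gene Hyal1 was at 4.37 ± 0.531 and 8.18 ± 2.35 CPM and the oxidised lipoprotein receptor gene Olr1 at 3.05 ± 1.78 and 0.828 ± 0.321 CPM (edgeR adjusted p = 0.0592 and 0.0687, n = 5 each).

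Of 11 tested genes of haemoglobin clearance, around Cd163, 0 passed by edgeR (6 higher and 1 lower at an unadjusted p of 0.05, 3 and 1 by DESeq2, 2 and 1 by limma-voom). The iron exporter gene Slc40a1 stood at 5.38 ± 2.46 and 19.1 ± 10.9 CPM and the haemopexin receptor gene Lrp1 at 1609 ± 352 and 2346 ± 267 CPM (edgeR adjusted p = 0.0799 and 0.106, n = 5 each). Of 14 tested phosphatidylserine receptor, bridging and engulfment signalling genes, the setting of Timd4, 1 rose, Gas6, and 0 fell. The list's median was 0.07 (3 higher and 3 lower at an unadjusted p of 0.05 by edgeR, 3 and 1 by DESeq2, 1 and 1 by limma-voom). The receptor gene Adgrb1 stood at 0.697 ± 0.395 and 0.0538 ± 0.0805 CPM with no overlap of the groups (edgeR adjusted p = 0.0579, n = 5 each). Timd2, a relative of Timd4, had 0 counts in all 10 libraries. Among 12 tested complement receptor genes beside Vsig4, 0 passed by edgeR (0 higher and 1 lower at an unadjusted p of 0.05, 0 by DESeq2 and by limma-voom), with Cr1l at 86.2 ± 3.54 and 76.3 ± 3.50 CPM. Among 9 genes of other enzymes that reduce aldehydes or ketones, grouped by that activity and not by descent, 0 passed by edgeR (1 higher and 0 lower at an unadjusted p of 0.05, 0 by DESeq2 and by limma-voom). Akr1c13 stood at 20.6 ± 2.72 and 25.8 ± 4.49 CPM and Akr1a1 at 1109 ± 97.6 and 1287 ± 153 CPM.

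**Figure D4:**
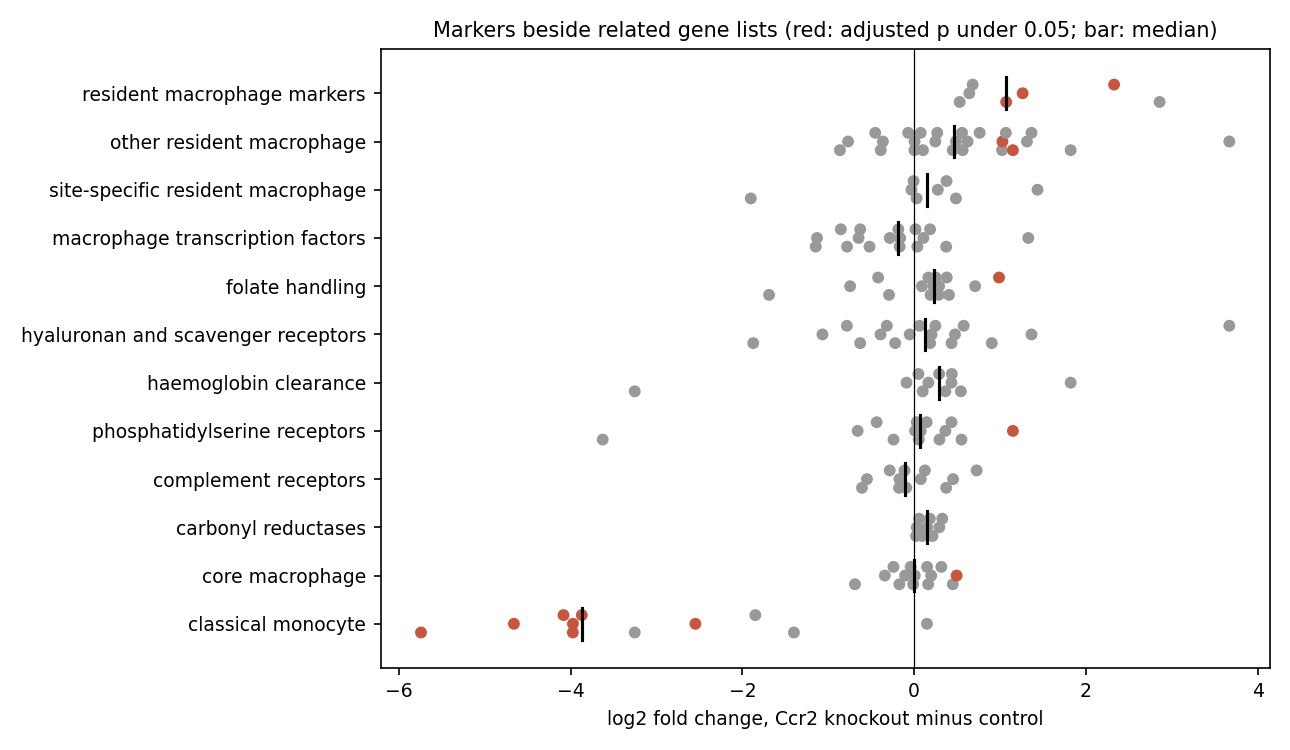
Log2 fold change, Ccr2 knockout minus control, of each tested gene in the 7 markers and 11 related lists. Each point is 1 gene, red where the adjusted p was under 0.05, and the bar is the list's median. The median is 1.07 for the 7 markers, 0.47 for other resident macrophage genes and -3.87 for classical monocyte genes. Some genes stand in 2 lists.

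Markers of other cells moved in the same libraries, and their part in the results was not tested. Of 11 classical monocyte genes, which include Ccr2 itself, 7 fell and 0 rose by edgeR (0 higher and 10 lower at an unadjusted p of 0.05, 0 and 9 by DESeq2, 0 and 10 by limma-voom), with a median log2 fold change of -3.87, where 0.543% of all genes were called lower. Their summed level ran from 2552 to 6288 CPM in control and from 1676 to 4108 CPM in knockout libraries, most of it from Fn1. Without Fn1, a choice made after its level was seen, the sum was 784 to 1830 CPM in control and 67.0 to 212 CPM in knockout libraries, and control library 5 had the highest. Plac8 fell from 94.5 ± 14.98 to 6.02 ± 3.998 CPM and Chil3 from 372 ± 333 to 6.94 ± 5.86 CPM (edgeR adjusted p = 0.00226 and 0.00540). Ly6c2, which marks classical monocytes, fell from 85.2 ± 18.3 to 5.43 ± 3.32 CPM (edgeR adjusted p = 0.00353). Core macrophage genes summed to between 31706 and 38194 CPM in control and between 33931 and 42292 CPM in knockout libraries, and 1 of 14 rose, Cd68 (log2 fold change 0.49, edgeR adjusted p = 0.0260).

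Endothelial cells also express Lyve1 and Stab1. Of 6 lymphatic endothelial genes, 4 did not reach the filter, and the lymphatic factor gene Prox1 had at most 7 counts in a library. The list summed to 27.4 to 97.9 CPM in control and 68.6 to 191 CPM in knockout libraries, nearly all of it from Pdpn, and 0 of the 2 tested passed by edgeR (1 higher and 1 lower at an unadjusted p of 0.05, 0 and 1 by DESeq2, 0 by limma-voom). The vascular receptor gene Flt4 was at 1.12 ± 0.521 and 0.322 ± 0.259 CPM and Pdpn at 63.6 ± 29.4 and 126 ± 46.9 CPM (edgeR adjusted p = 0.132 and 0.227, n = 5 each). Of 13 blood and sinusoidal endothelial genes 8 were tested and 0 passed by edgeR (1 higher and 1 lower at an unadjusted p of 0.05, 0 and 1 by DESeq2, 0 by limma-voom). Their sum was 40.6 to 90.4 CPM in control and 25.99 to 40.4 CPM in knockout libraries, beside 1942 to 4377 CPM of Stab1 over the 10 libraries. Pecam1, which endothelial cells and some leukocytes express, stood at 33.9 ± 20.8 and 9.84 ± 3.28 CPM, with every knockout library below every control (edgeR adjusted p = 0.0673, n = 5 each). Vwf, the gene of von Willebrand factor, was at 4.77 ± 1.62 and 8.35 ± 2.498 CPM (edgeR adjusted p = 0.188, n = 5 each). The endothelial cadherin gene Cdh5 was at 5.45 ± 2.66 and 3.39 ± 0.732 CPM (edgeR adjusted p = 0.369, n = 5 each).

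Of 10 tested T and NK cell genes 1 had a log2 fold change above 0, and the median was -1.18. That gene was Cd4, which stood at 61.6 ± 12.3 CPM in control and at 135 ± 35.1 CPM in knockout libraries and rose by the test (log2 difference 1.13, SE 0.20, edgeR adjusted p = 0.0223). Cd4 encodes a T cell co-receptor that some macrophages also express. Of the list 0 fell by edgeR, while 1 was lower at an unadjusted p of 0.05, 1 by DESeq2 and 0 by limma-voom. The regulatory T cell factor gene Foxp3 stood at 2.26 ± 1.35 and 0.590 ± 0.366 CPM (edgeR adjusted p = 0.106, n = 5 each). The T cell receptor chain gene Cd3e stood at 3.96 ± 2.12 and 1.82 ± 3.06 CPM and did not pass (adjusted p = 0.625). Without Cd4 the other 10 genes of the list summed to 28.5 to 104 CPM in control and 2.24 to 98.6 CPM in knockout libraries, with knockout libraries 1, 4 and 5 at 4.26, 2.49 and 2.24 CPM. Cd4 stood at 184, 143 and 86.5 CPM in those 3 libraries. Sums of the other lists in control and knockout libraries were 159 to 521 and 113 to 207 CPM for neutrophil genes, 11.7 to 29.6 and 5.03 to 11.1 CPM for dendritic cell genes, and 642 to 2176 and 254 to 3433 CPM for fibroblast genes. They were 41.1 to 74.5 and 16.4 to 61.8 CPM for B and plasma cell genes, 1.03 to 15.5 and 3.84 to 14.6 CPM for mast cell genes, and 32.8 to 56.8 and 29.8 to 58.4 CPM for melanoma genes. In these 6 lists 1 gene fell past the threshold, the dendritic cell gene Dpp4 (log2 fold change -2.31, edgeR adjusted p = 0.0297), and 0 rose by edgeR (0 higher at an unadjusted p of 0.05, and 0 by DESeq2 and by limma-voom). On the lower side, edgeR gave 4 dendritic cell, 3 neutrophil, 1 B and plasma cell and 1 fibroblast gene at an unadjusted p of 0.05, and 0 mast cell or melanoma genes. DESeq2 called 2 dendritic cell, 2 neutrophil and 1 fibroblast gene lower, and limma-voom 1 dendritic cell gene.

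**Figure D5:**
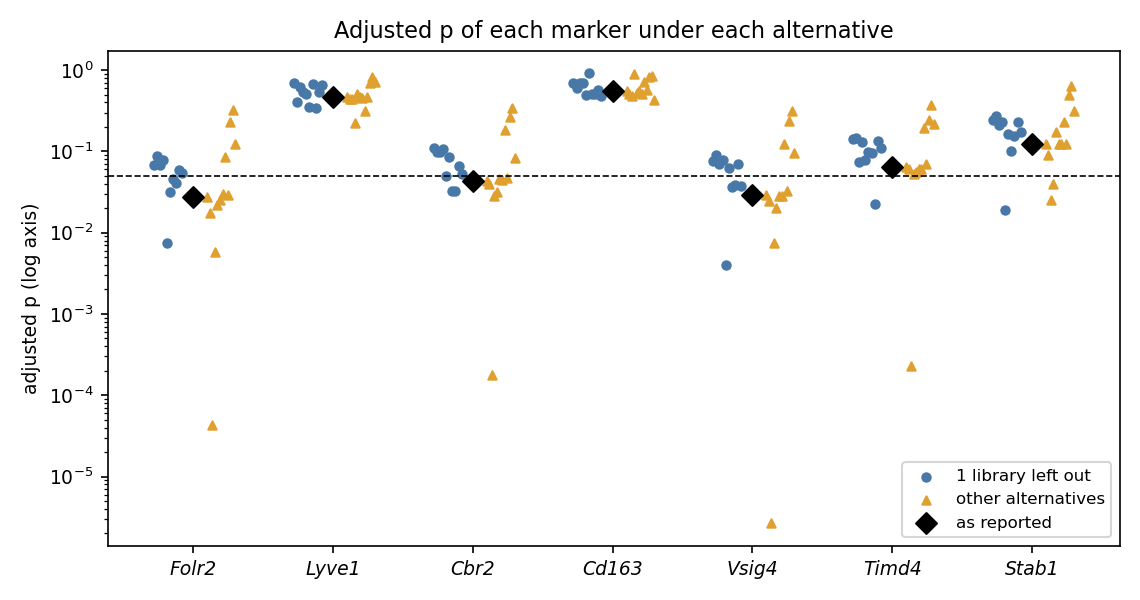
Adjusted p of each marker as reported (black diamond), with 1 of the 10 libraries left out (blue) and under the other 12 alternatives (yellow), on a log axis with the threshold of 0.05 dashed. Vsig4 and Folr2 pass in 12 and Cbr2 in 10 of the 22 alternatives, Stab1 in 3 and Timd4 in 2, and Lyve1 and Cd163 in 0.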

How the data were processed

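For 10 libraries the authors deposited unnormalized counts of reads for each gene, made with STAR on GRCm39 per the submitters' processing notes. The release of STAR and the annotation were not given in the sources used here. Reverse-strand counts were taken, since the library kit is directional per the labels' protocols. Summary rows (12.6% to 15.4% of a library) were left out of library sizes; multimapping reads were at 0 in all of them. Of 55359 identifiers 52083 matched a symbol; the rest held 0.145% of counts. A series table with 10 unnamed columns was not used.

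The fit was made in R 4.3.3 with edgeR 4.0.16 (filterByExpr, minimum count 10, TMM, quasi-likelihood F-test, Benjamini-Hochberg adjustment, threshold 0.05) without covariates. Standard errors were derived from the log2 fold change and F. Levels are CPM with TMM-scaled library sizes. Alternatives were DESeq2 1.42.0, limma-voom (limma 3.58.1), DESeq2 size factors, no composition factor, other filters (none, or 1 CPM in 5 libraries), unstranded counts, a replicate block, robust dispersions, each library left out, and close libraries summed or left out. The test was checked on simulated counts. Figures used matplotlib 3.10.9.

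Markers and lists were chosen with earlier results of these data known. Of each list, up to 4 genes past the threshold, or otherwise up to 2 with the smallest p, are named, with the genes nearest to the markers. Adgre1, Slc19a1, Maf, Spi1, Prox1, Cdh5, Cd3e, Fn1, Clec4f and Timd2 fall outside this rule, as do Pf4, Marco, Adgrb1 and Foxp3 in their lists. B and plasma, neutrophil, mast cell, fibroblast and melanoma lists are given by sums and counts only. Some genes of the lists are not reported here.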

Additional observations from a re-analysis of the deposited data

Results flagged for a closer look

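In 4 of the 14 sets of 5 libraries (7 markers in 2 genotypes) 1 library stood apart, its gap to the nearest other library taking up most of the range of its group. Chance marks about 1 in 20 such sets if values are normally distributed, which was not checked. The rule was applied to CPM and not to log2 values, so that rate need not hold here. In all 4 sets the library that stood apart was the highest. Control library 5 stood apart for Folr2 at 201 CPM (next 129 CPM), for Vsig4 at 20.1 CPM (next 6.87 CPM) and for Stab1 at 3725 CPM (next 2342 CPM). Knockout library 1 stood apart for Cd163 at 350.0 CPM (next 99.3 CPM). The sets are not independent, since 3 of the 4 are the same library.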

How the results depend on the processing

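The log2 fold changes of Folr2, Lyve1, Cbr2, Vsig4, Timd4 and Stab1 stayed above 0 under all 22 alternatives, and that of Cd163 ran from -0.082 without knockout library 1 to 0.90 without knockout library 5 when 1 library was left out, and was above 0 otherwise. Of all genes, 203 passed; the count was 820 with DESeq2, 446 with limma-voom, 55 with a replicate block, 29 and 8 with the close control pairs summed, without and with knockout libraries 4 and 5 also summed, 50 without both of the latter, and 62 to 267 with 1 library left out. The 3 markers called became 5 with DESeq2, which added Timd4 and Stab1, and 0 with the replicate block, with either summing and without knockout libraries 4 and 5 (6, 5, 4 and 6 markers at an unadjusted p of 0.05 by edgeR). With 1 library left out 0 to 4 were called: 0 when the library missing was one of controls 1 to 4 or knockout 4 (5 or 6 at an unadjusted p of 0.05), and 1 when it was knockout 1 or 5. The cause was not tested. With the block, adjusted p was 0.0860 for Folr2, 0.183 for Cbr2 and 0.125 for Vsig4. Whether the shared title numbers pair the libraries is not known. Deviations of same-numbered libraries correlated between -0.53 and 0.34, and 1 of 5 numbers matched best. With so few libraries these values cannot exclude a pairing. Timd4 rests on 5 to 36 counts in control libraries.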
